A study of Schizosaccharomyces pombe with 4 samples.

Results

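The genes *dis3*, *mtr4*, *cid14*, *cti1*, *mtl1*, *red1* and *pab2* encode nuclear RNA decay factors that work with, or stand beside, the exonuclease Rrp6 in the fission yeast *Schizosaccharomyces pombe*. They were taken by name from the table of gene expression in wild-type (WT) and *rrp6*Δ cells, where all 7 were found among 5129 protein-coding gene entries. The question was whether the rest of the nuclear decay machinery differs in RNA level when *rrp6* is absent. Total RNA depleted of rRNA was sequenced with strand information from 2 WT and 2 *rrp6*Δ cultures, which the labels call biological replicates. The labels give the genotypes as a wild-type strain and an *rrp6* deletion strain and name no further allele, treatment or growth stage. In every library a synthetic spike-in (ERCC RNA) had been added to a fixed mass of total RNA.

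The exosome is a ring-shaped complex that degrades RNA from the 3′ end. Dis3 is the catalytic subunit that stays with the complex in nucleus and cytoplasm, whereas Rrp6 is a second exonuclease found mainly in the nucleus. Helper complexes bring RNA to the exosome. TRAMP combines the helicase Mtr4, a poly(A) polymerase and a zinc knuckle protein, and adds short tails to aberrant nuclear RNAs. MTREC, also called NURS, is built around the zinc finger protein Red1 and the Mtr4-like helicase Mtl1, and works with the RNA-binding protein Mmi1 in removing meiotic mRNAs from dividing cells. Pab2, a nuclear poly(A)-binding protein, acts in the same route.

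Values are normalized read counts, that is reads per gene multiplied by the library factor that the authors chose. The 4 libraries held 64913330 to 82419985 reads in transcripts, and 1667 to 8664 reads in each of the 7 genes. Between strains, log2 fold changes are those of *rrp6*Δ against WT on the log2(normalized read count + 0.729) scale, tested with limma over 11227 transcripts with Benjamini-Hochberg adjustment. A gene was called at an adjusted p under 0.05. As a check, *rrp6* had normalized read counts of 2352 and 2842 in WT against 7.38 and 8 in its deletion, so the labels and the data matched. On this scale 46.7% of 5073 protein-coding genes tested were called higher in *rrp6*Δ and 7.08% lower, with a median log2 fold change of 0.26. That background depends on the scaling of the libraries: with TMM factors (trimmed mean of M values) taken from protein-coding genes, the median was 0.01, and 1206 coding genes were called higher and 1148 lower in place of 2368 and 359. In bulk RNA, more cells with a transcript and more RNA per cell cannot be told apart. Markers of M cells (one mating type) were called higher, against 46.7% of coding genes. Their log2 fold changes were 1.41 for *mfm1*, 0.84 for *mfm2*, 2.37 for *mfm3*, 0.33 for *mam1* and 0.55 for *mam2*. The highest in level was *mam1* (2036 and 1964 in WT, 2476 and 2538 in *rrp6*Δ). Among markers of P cells, *map2* (0.92) was called higher, whereas *map3* (−0.12) and *map1* (−0.25) had negative values and were not called. *map3* had 468 and 485 in WT and 423 and 454 in *rrp6*Δ. With TMM factors from protein-coding genes only *mfm2*, *mfm3* and *map2* stayed called higher, and *map3* and *map1* were called lower. *mat1-Mc*, which defines M cells, had 1.77 and 2.19 in WT and 4.10 and 3 in *rrp6*Δ (too low to be tested). The part of cell type in the results was not tested.

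The 7 genes differed in response. *red1* rose close to 2-fold, *mtl1* and *cti1* rose by less, and *cid14*, *mtr4*, *pab2* and *dis3* did not pass the test. The 3 genes called higher are 42.9% of the 7, against 46.7% of coding genes, none was called lower, and none passed 2-fold as well, against 6.39% of coding genes higher and 0.591% lower. All 7 log2 fold changes were positive, so that the count of lower genes is 0 at an unadjusted p under 0.05 as well, and edgeR's quasi-likelihood test also called 3 higher and 0 lower. The median over the 7 genes was 0.18 on the log2 scale, under the 0.26 of all coding genes. In 4 genes (57.1%, against 65.3% of coding genes) both *rrp6*Δ libraries lay above both WT libraries, and in none of the 7 below, against 12% of coding genes. *red1* kept its call under each alternative run, whereas the calls of *mtl1* and *cti1* did not survive TMM factors from protein-coding genes. With these factors *red1* remained higher and *dis3* was called lower (log2 fold change −0.23).

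**Figure D1:**
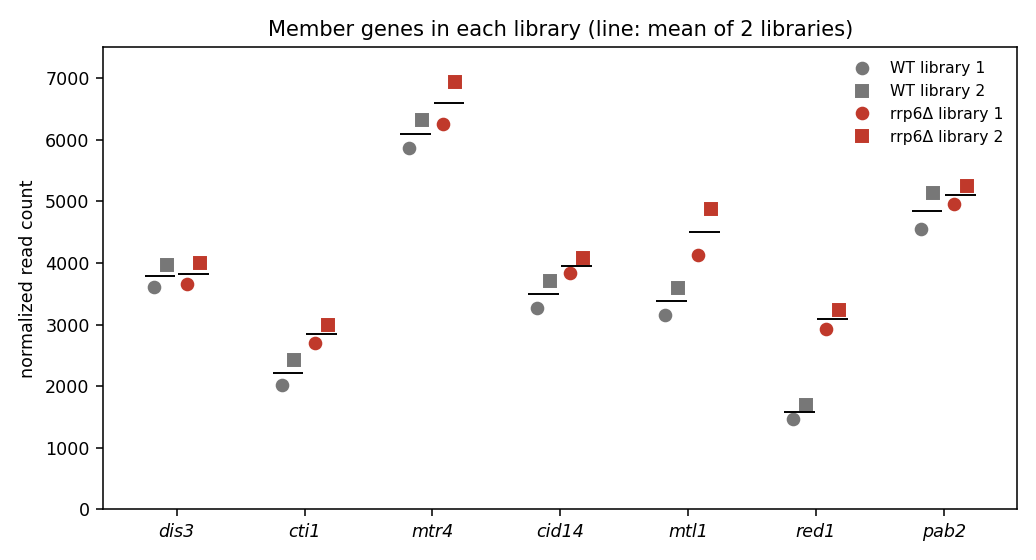
Normalized read counts of the 7 genes in each library (points, 2 WT in grey and 2 *rrp6*Δ in red, with the mean of each strain as a line). *red1* had 1473 and 1690 in WT and 2933 and 3233 in *rrp6*Δ, while the libraries of the strains overlapped for *dis3*, *mtr4* and *pab2*.

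*dis3* (SPBC26H8.10, chromosome II, 3970898 to 3974218, plus strand) encodes the catalytic subunit that remains in the exosome without Rrp6. It had 3603 and 3965 normalized read counts in WT and 3656 and 3992 in *rrp6*Δ. The libraries of the strains overlapped, and the log2 fold change was 0.02 (standard error 0.11, 95% interval −0.22 to 0.25, adjusted p = 0.907 from limma). Its sign turned under each other scaling of the libraries, from −0.052 with library totals to −0.64 with DESeq2 size factors. Of all coding genes, 21.2% had a lower log2 fold change, so *dis3* stood in the lower part of the distribution under the deposited scaling.

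*cti1* (SPCC1739.07, chromosome III, 2041086 to 2042711, plus strand) encodes a member of the C1D family, whose counterpart in *Saccharomyces cerevisiae*, Rrp47, binds Rrp6. Its normalized read counts were 2011 and 2424 in WT and 2707 and 2996 in *rrp6*Δ. The strains did not overlap, and the mean rose 1.29-fold (log2 fold change 0.37, standard error 0.12, adjusted p = 0.0128 from limma). The call did not hold when WT library 1 (0.23) or *rrp6*Δ library 2 (0.29) was left out, and the sign turned with 2 other scalings, TMM factors over all transcripts (−0.17) and DESeq2 size factors (−0.29).

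The helicase gene *mtr4* (SPAC6F12.16c, chromosome I, 1344924 to 1348614, minus strand), shared by TRAMP and other exosome routes, had 5871 and 6313 normalized read counts in WT and 6261 and 6942 in *rrp6*Δ. The lower *rrp6*Δ library lay below the higher WT library. The log2 fold change was 0.11 (95% interval −0.10 to 0.33, adjusted p = 0.325 from limma). *cid14* (SPAC12G12.13c, chromosome I, 321764 to 324129, plus strand) encodes the poly(A) polymerase of TRAMP and had 3268 and 3712 in WT and 3835 and 4077 in *rrp6*Δ. Both *rrp6*Δ libraries were above WT, but the log2 fold change of 0.18 did not pass the test (95% interval −0.05 to 0.42, adjusted p = 0.144 from limma), and without WT library 2 it did (0.27, adjusted p = 0.021). Under TMM factors, DESeq2 size factors and quantile normalization both TRAMP genes turned to the lower side, for *mtr4* from −0.075 to −0.55 and for *cid14* from −0.063 to −0.48.

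*mtl1* (SPAC17H9.02, chromosome I, 2004745 to 2008108, plus strand) encodes the helicase of MTREC. It had 3162 and 3594 normalized read counts in WT and 4121 and 4875 in *rrp6*Δ. The mean rose 1.33-fold with no overlap between strains (log2 fold change 0.41, standard error 0.12, adjusted p = 0.00472 from limma). This call was lost without *rrp6*Δ library 2 (0.29), and the sign turned with TMM factors over all transcripts (−0.13) and DESeq2 size factors (−0.25).

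*red1* (SPAC1006.03c, chromosome I, 5070931 to 5074055, minus strand) encodes the zinc finger scaffold of MTREC. Its normalized read counts were 1473 and 1690 in WT, the lowest of the 7 genes in both libraries, and 2933 and 3233 in *rrp6*Δ. The mean rose from 1581 ± 153 (SD, n = 2) to 3083 ± 212 (SD, n = 2), 1.95-fold (log2 fold change 0.96, standard error 0.12, 95% interval 0.71 to 1.22, adjusted p = 2.01e-06 from limma). The rise lay 0.71 above the median of coding genes on the log2 scale, and 93.2% of coding genes had a lower log2 fold change. It was called higher with each other scaling, from 0.30 with DESeq2 size factors to 0.90 with library totals. Leaving out 1 library at a time gave 0.87 to 1.06, with the call kept each time.

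*pab2* (SPBC16E9.12c, chromosome II, 1939371 to 1940829, minus strand), for the nuclear poly(A)-binding protein, had 4556 and 5138 normalized read counts in WT and 4953 and 5256 in *rrp6*Δ. The strains overlapped (log2 fold change 0.08, 95% interval −0.15 to 0.30, adjusted p = 0.527 from limma), and the sign turned under TMM factors, DESeq2 size factors and quantile normalization, down to −0.58. In the same libraries *rpl3002*, a ribosomal protein gene whose pre-mRNA is a known target of Pab2 and the exosome, rose from 3195 and 3650 to 19024 and 19271 (log2 fold change 2.49). It was higher under each other scaling, at 1.83 or above.

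Ratios of genes within a library do not depend on the library factor. The share of *red1* in the summed normalized read counts of the 7 genes was 6.15% and 6.30% in WT and 10.3% in both *rrp6*Δ libraries. *dis3* took 15.0% and 14.8% in WT and 12.8% and 12.7% in *rrp6*Δ. The libraries of the strains did not overlap in the share of any of the 7. Shares were not computed for other sets of genes, so that no background stands beside this count. In level, 65.3% of coding genes were higher without overlap and 12% lower. *red1*, *mtl1* and *cti1* took more, and *dis3*, *mtr4*, *pab2* and *cid14* took less. Since these are shares of 1 sum, a larger share of *red1* lowers those of the others. The mean count of *dis3* itself was 3784 in WT and 3824 in *rrp6*Δ. Against *mtl1*, its partner in MTREC, *red1* stood at 0.466 and 0.470 in WT and 0.712 and 0.663 in *rrp6*Δ. The ratio of the MTREC helicase *mtl1* to the TRAMP helicase *mtr4* was 0.539 and 0.569 in WT and 0.658 and 0.702 in *rrp6*Δ, also without overlap. Within TRAMP, *cid14* to *mtr4* was 0.557 and 0.588 in WT and 0.613 and 0.587 in *rrp6*Δ, where the strains overlapped.

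Per length, as normalized reads per nucleotide of the gene entry, *pab2* had the highest level in WT (3.32 ± 0.282, SD, n = 2) and *red1* the lowest (0.506 ± 0.049, SD, n = 2), against a median of 0.930 over coding genes. Between them came *mtr4* (1.65), *cid14* (1.48), *cti1* (1.36), *dis3* (1.14) and *mtl1* (1.00). The WT libraries of *cid14* and *cti1* overlapped, and the other neighbours in this order were separate. In *rrp6*Δ the level per nucleotide was 3.50 for *pab2*, 1.79 for *mtr4*, 1.75 for *cti1*, 1.67 for *cid14*, 1.34 for *mtl1*, 1.15 for *dis3* and 0.987 for *red1*. *mtr4*, *cti1* and *cid14* overlapped in *rrp6*Δ, and *mtl1* was placed above *dis3* with separate libraries. *red1* remained the lowest, with 28.3% of coding genes at a lower level per nucleotide in WT and 44.9% in *rrp6*Δ.

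The table also lists the coding sequence of each gene piece by piece, split at introns, and *red1* has 4 pieces. The introns between them are shown because the difference between strains grew from piece to piece. Sequences are from the RefSeq assembly ASM294v3, read 5′ to 3′ on the minus strand, with the first and last 2 bases of each intron in capitals (chrI:5073450-5073727, chrI:5073189-5073388 and chrI:5071418-5071461).
red1 intron 1: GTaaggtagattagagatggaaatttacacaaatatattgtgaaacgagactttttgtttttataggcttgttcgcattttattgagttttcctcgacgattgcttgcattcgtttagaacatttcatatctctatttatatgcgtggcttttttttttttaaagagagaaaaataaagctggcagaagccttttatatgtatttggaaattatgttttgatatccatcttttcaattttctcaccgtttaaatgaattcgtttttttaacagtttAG
red1 intron 2: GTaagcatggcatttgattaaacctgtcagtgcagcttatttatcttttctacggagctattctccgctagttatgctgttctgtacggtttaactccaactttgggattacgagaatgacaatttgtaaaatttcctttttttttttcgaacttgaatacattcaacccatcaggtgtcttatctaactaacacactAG
red1 intron 3: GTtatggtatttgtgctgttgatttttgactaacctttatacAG
For comparison, *pab2* also has 4 coding pieces, with 3 shorter introns (chrII:1940670-1940720, chrII:1940361-1940415 and chrII:1940217-1940272, minus strand).
pab2 intron 1: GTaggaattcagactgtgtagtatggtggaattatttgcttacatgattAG
pab2 intron 2: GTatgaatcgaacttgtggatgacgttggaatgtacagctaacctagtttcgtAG
pab2 intron 3: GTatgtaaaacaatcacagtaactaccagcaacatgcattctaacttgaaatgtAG
The introns of *red1* have 278, 200 and 44 nucleotides and those of *pab2* 51, 55 and 56. All 6 open with GT and end with AG.

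In *red1* the first coding piece (145 nucleotides) had 283 and 308 normalized read counts in WT and 442 and 447 in *rrp6*Δ, a 1.5-fold difference of means. The second piece (61 nucleotides) had 247 and 256 in WT and 413 and 402 in *rrp6*Δ, 1.62-fold. Both short pieces at the 5′ end were thus higher by less than the gene as a whole. For the third piece (1727 nucleotides), which holds most of the coding sequence, the values were 1016 and 1207 in WT and 2052 and 2298 in *rrp6*Δ, 1.96-fold. The last piece (206 nucleotides), after the 44-nucleotide intron, had 204 and 221 in WT and 537 and 562 in *rrp6*Δ, 2.59-fold. None of the 4 pieces overlapped between strains, and the fold was larger in each next piece from the 5′ to the 3′ end.

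The ratio of the last to the first piece does not depend on scaling. In *red1* it was 0.722 and 0.716 in WT and 1.22 and 1.26 in *rrp6*Δ, a difference of 0.78 on the log2 scale. The ratio was taken over 2124 genes with several pieces and at least 50 reads in the first and in the last piece in every library. Their median difference was −0.0064 (quartiles −0.072 and 0.062), and 99.8% had a lower difference than *red1*. Libraries of the strains did not overlap, with *rrp6*Δ higher, in 16.5% of these genes, and lower in 19.4%. With *red1* included, 5 genes had a difference as high as in *red1*, the others being *rps1702*, where 1 *rrp6*Δ library set the value, *med11*, *mug8* and *alp21*. In *pab2* the 4 pieces had folds of 0.98, 1.02, 1.04 and 1.02 with overlap in each. The ratio for *dis3*, which has 2 pieces, was 5.87 and 5.81 in WT and 6.08 and 6.32 in *rrp6*Δ, a difference of 0.085. A read that spans a junction is counted in each piece it touches, so that reads in introns cannot be separated, and with 2 libraries per strain no exact test of a single ratio can pass the threshold. No other transcript of the table overlaps a coding piece of *red1* on either strand.

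For genes with a single coding piece, reads inside and outside the coding sequence were compared. *cti1* has 402 coding nucleotides in an entry of 1626. Its coding piece had 1200 and 1553 normalized read counts in WT and 1429 and 1654 in *rrp6*Δ, a 1.12-fold difference with overlap between strains. Outside the coding sequence *cti1* had 810 and 871 in WT and 1278 and 1342 in *rrp6*Δ, 1.56-fold and without overlap. The share of its reads outside the coding sequence was 40.3% and 35.9% in WT and 47.2% and 44.8% in *rrp6*Δ, so that most of the difference in *cti1* lay outside the coding piece. Over 1817 such genes such a difference was common: 47.1% had *rrp6*Δ above WT without overlap and 11.1% below, and 85.4% had a lower difference than the 0.47 of *cti1*. *mtl1* went the other way, with 92.8 and 99.1 normalized read counts outside its coding sequence in WT and 87.8 and 87.0 in *rrp6*Δ, while its coding piece was 1.34-fold higher. Its difference of −0.56 on the log2 scale was above that of only 1.71% of these genes.

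**Figure D2:**
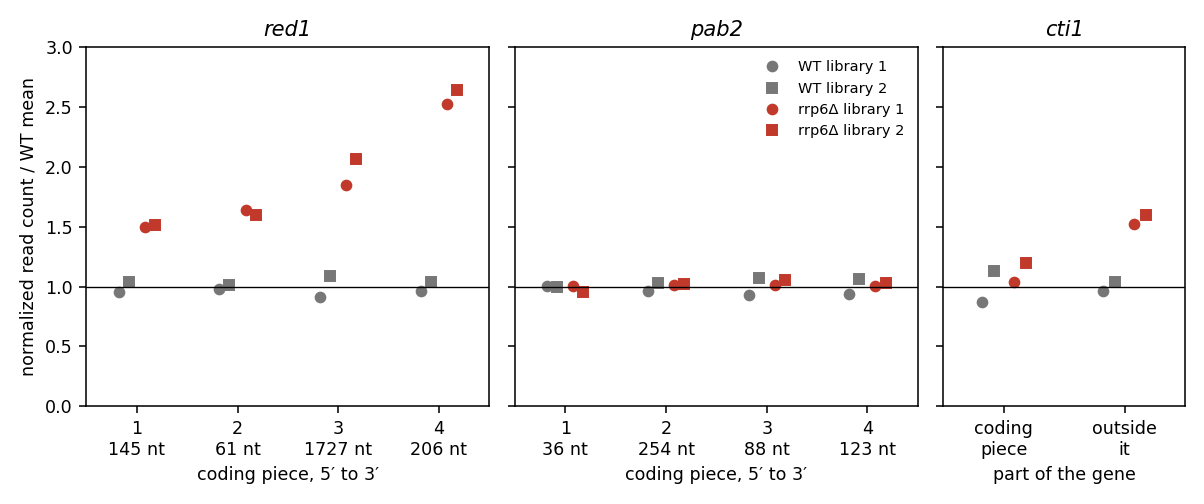
Normalized read count of each library (points) divided by the WT mean of the same piece, for the 4 coding pieces of *red1* and of *pab2* from the 5′ end and for the coding piece of *cti1* and the rest of its entry, with lengths of the coding pieces of *red1* and *pab2* under the axis. The fold of means in *red1* went from 1.5 in the first to 2.59 in the last piece, *pab2* stayed between 0.98 and 1.04, and *cti1* was at 1.12 inside and 1.56 outside its coding piece.

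Around the 7 genes, 33 other transcripts of the table overlapped or lay within 500 nucleotides. Of these, 28 were called higher in *rrp6*Δ and none lower by limma under the deposited factors (the single negative value was −0.15, adjusted p = 0.255), against 67.6% and 4.18% of all transcripts, and 18 were also past 2-fold, against 42.6%. Of the 33, 14 had negative values with DESeq2 size factors (17 called higher, 7 lower), 10 with TMM factors over all transcripts (18 higher, 6 lower) and 18 after quantile normalization (10 higher, 5 lower). Non-coding RNAs on the opposite strand within *dis3*, *mtr4*, *cid14* and *pab2* numbered 10, and all 10 were called higher and past 2-fold, with log2 fold changes of 1.05 to 2.10. The shares of all transcripts include coding genes, of which 46.7% were called higher and 6.39% also past 2-fold. Among non-coding transcripts alone, both shares were therefore larger than the 67.6% and 42.6% of all transcripts, and such rises were common. These 10 are not independent, since several cover the same locus and share reads, and those named CUT (cryptic unstable transcript) were chosen by the study for a rise in these libraries. After quantile normalization 4 of the 10 had negative values, 3 were called higher and 1 lower, while none was negative under the other scalings. With DESeq2 size factors 9 were called higher and 7 of these were past 2-fold. TMM factors over all transcripts and from protein-coding genes each left 9 called higher.

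Over *dis3*, the antisense CUT617 (1457 nucleotides) had 32.7 and 50.3 normalized read counts in WT and 113 and 129 in *rrp6*Δ (1.56 on the log2 scale, but −0.16 after quantile normalization). Over the 5′ part of *pab2*, *pab2-antisense-1* had 50.4 and 50.3 in WT and 200.2 and 225 in *rrp6*Δ (2.06), and CUT1682 and XUT1084 (an Xrn1-sensitive transcript) at the same place had the same log2 fold change of 2.06. In the 5′ part of *cid14*, *cid14-antisense-1* had 7.07 and 8.74 in WT and 27.9 and 24 in *rrp6*Δ (1.63), and XUT0470 covers most of it (1.72), with −0.56 and −0.50 after quantile normalization. The 3′ part of *mtr4* is crossed by SPNCRNA.735 (1.63), CUT2079 (2.10), XUT1369 (2.02) and CUT2078 (1.05, but −1.14 after quantile normalization). The 4 genes with such antisense RNAs were those that did not pass the test. As a share of the reads of the gene itself, the antisense RNAs were low, 1.10% for CUT617 in WT and 3.17% in *rrp6*Δ, and 1.04% and 4.16% for *pab2-antisense-1*. The library protocol keeps the strand, and whether antisense level and gene level are linked was not tested.

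Opposite *cti1*, the protein-coding SPCC1739.08c overlaps 923 nucleotides at the 3′ end, and it rose from 142 and 138 to 295 and 318 (log2 fold change 1.12, but −0.062 after quantile normalization). That overlap lies in the part of *cti1* outside the coding piece. Upstream of *cti1* on the same strand, CUT1466 ends 391 nucleotides before the gene and went from 5.30 and 3.64 to 84.5 and 79 (4.0). A similar transcript upstream of *dis3*, CUT1884, ends 358 nucleotides before the gene and had 1.77 and 0.729 in WT and 32 and 39 in *rrp6*Δ (4.24). At such low WT values the size of the change depends on the pseudocount. With a pseudocount 10 times larger it was 2.92 for CUT1466 and 2.32 for CUT1884, and after quantile normalization 1.91 and 1.85. Both upstream CUTs were chosen by the study for such a rise. Downstream of *dis3*, XUT1232, novelncTU_198 and CUT1885 share a locus and had log2 fold changes of 2.24, 2.21 and 2.36. The coding neighbours that overlap an end of a member were SPBC26H8.11c at *dis3* (−0.15, not called), *pfs2* and *gms2* at *cid14* (0.20, not called, and 0.63, called), *cid16* and *rdl1* at *mtl1* (0.33 and 0.61, both called) and *asa1* at *red1* (0.21, not called). With DESeq2 size factors *gms2* (−0.026), *cid16* (−0.33) and *rdl1* (−0.047) had negative signs. The remaining overlap, SPNCRNA.1479 with the start of *pab2* on the same strand, was at 0.07 and not called.

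The upstream neighbour of *red1* is *mcp3*, a meiotic coiled-coil protein gene on the same strand. That of *mtr4* is the divergent gene *rna14*, for a cleavage and polyadenylation factor. The DNA between *red1* and *mcp3* and that between *mtr4* and *rna14* are shown because both intervals are short. Both intervals were read from ASM294v3 on the minus strand, towards *red1* (chrI:5074056-5074101) and towards *mtr4* (chrI:1348615-1348686).
mcp3 to red1: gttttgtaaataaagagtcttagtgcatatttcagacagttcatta
rna14 to mtr4: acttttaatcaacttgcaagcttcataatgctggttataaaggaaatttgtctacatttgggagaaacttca
Across the 46 nucleotides before *red1*, *mcp3* had 194 and 220 normalized read counts in WT and 699 and 829 in *rrp6*Δ. It rose by 1.88 on the log2 scale (adjusted p = 2.18e-08 from limma). It was higher with each other scaling too, from 1.10 after quantile normalization to 1.81 with library totals. Both genes of this tandem pair were thus called higher. Across the 72 nucleotides between *mtr4* and *rna14*, *rna14* rose from 3294 and 4001 to 4560 and 4889 (0.38, but −0.16 with TMM factors over all transcripts), while *mtr4* did not pass.

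**Figure D3:**
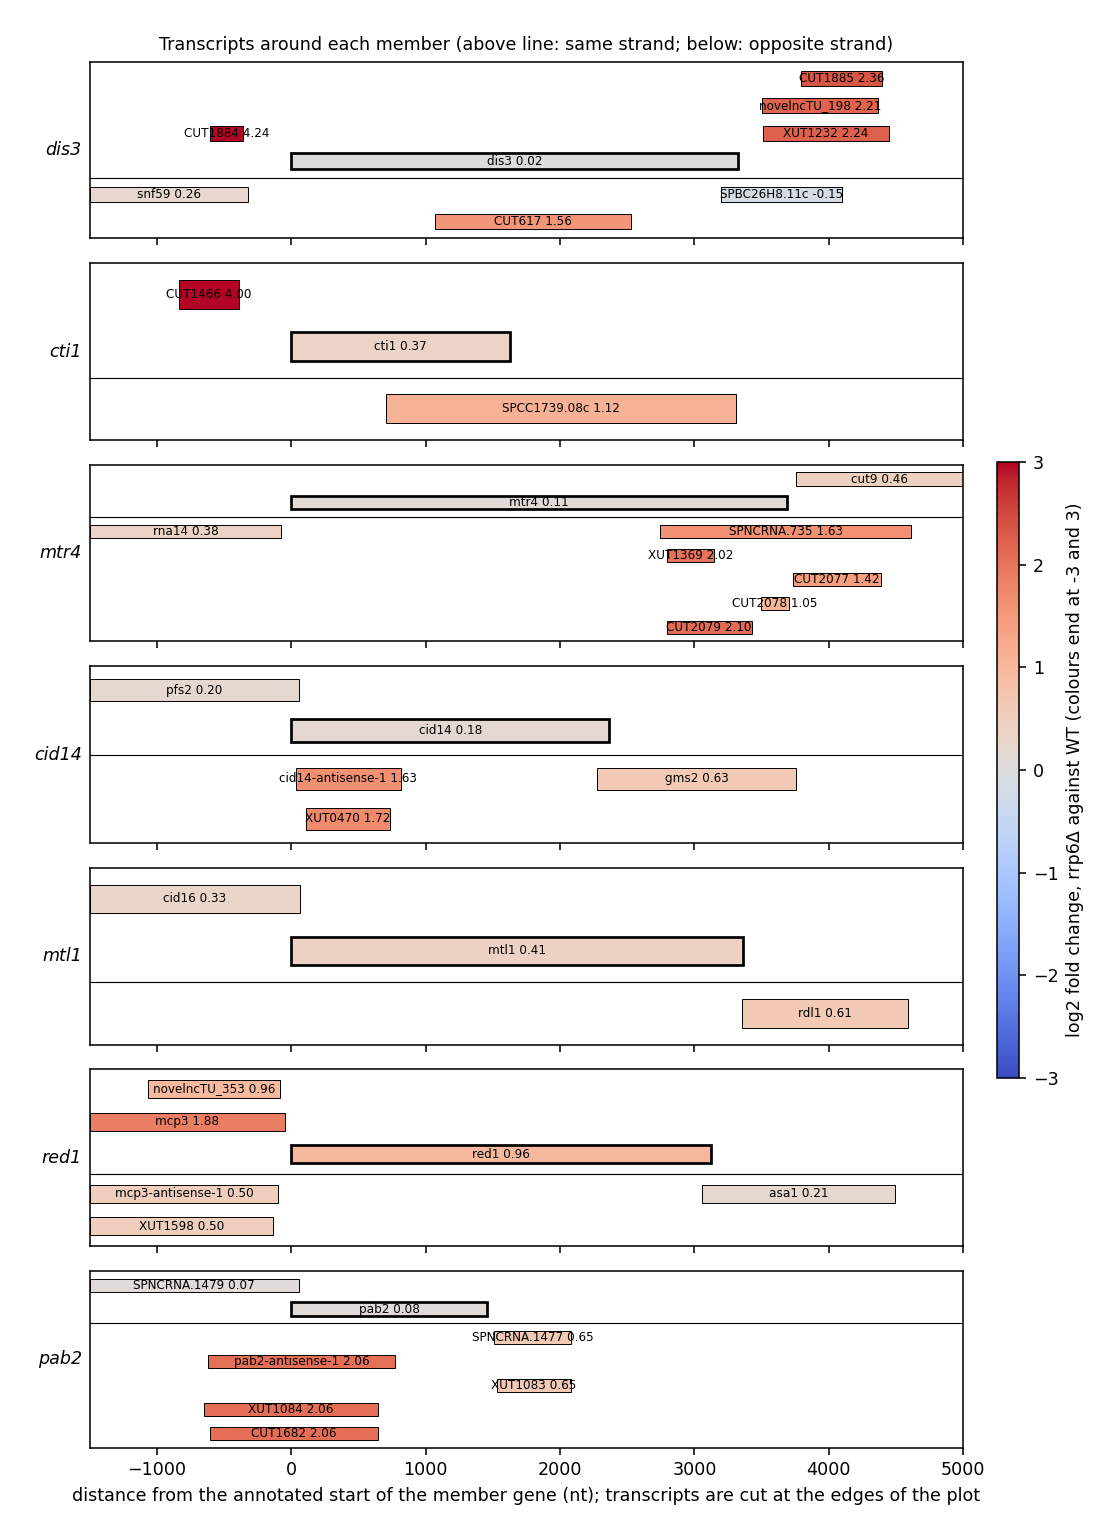
Transcripts around each of the 7 genes by distance from the annotated start of the gene in nucleotides, with same-strand transcripts above and opposite-strand transcripts below the line, coloured and labelled by the log2 fold change of *rrp6*Δ against WT with the deposited factors. Antisense non-coding RNAs over *dis3*, *mtr4*, *cid14* and *pab2* were at 1.05 to 2.10, of which 4 turned negative after quantile normalization, while the 4 genes under them were at 0.02 to 0.18, with signs that turn under TMM factors.

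Mmi1, the partner of MTREC, is known to bind RNA at the motif UNAAAC, searched in DNA as TNAAAC (N, any base) on the sense strand of each gene entry. Of 5118 coding genes, 91.8% hold it at least once, with a median of 1.69 per kilobase. *red1* holds 12 matches (3.84 per kilobase, more than in 95.2% of genes), *pab2* 5 (3.43, 92.6%) and *cti1* 5 (3.08, 89.3%). *cid14* holds 6 (2.54, 78.7%), *dis3* 7 (2.11, 66.1%), *mtl1* 6 (1.78, 54.2%) and *mtr4* 2 (0.542, 11.1%). On the antisense strand the counts were 6 for *red1*, 3 for *pab2*, 2 for *cti1*, 5 for *cid14*, 5 for *dis3*, 11 for *mtl1* and 6 for *mtr4*. Of the 12 in *red1*, 7 lie in the third coding piece, 2 in introns or at their borders and 3 outside the coding sequence. A pair in the third piece at chrI:5073075-5073104 and chrI:5073062-5073091, and a pair near the 3′ end at chrI:5071192-5071221 and chrI:5071174-5071203, lie closest together and are shown with the match in capitals.
red1 site 3: tcctttctttccTCAAACcgcctcctcaaa
red1 site 4: caaaccgcctccTCAAACaaaaccttttcg
red1 site 10: ttccatttagatTGAAACtgccaagcaaca
red1 site 11: tgccaagcaacaTCAAACtaactgtaaaaa
The matches are a description of letters in the gene, and binding was not measured in these libraries.

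Among 49 other genes of RNA decay, listed by function with *rrp6* left out, 20 were called higher (40.8%) and 2 lower (4.08%), with a median log2 fold change of 0.20. These shares again lay close to those of all coding genes. *cid11*, a Cid1-family nucleotidyltransferase gene at a low level, was the one past 2-fold (19.4 and 24.0 in WT, 64.0 and 66 in *rrp6*Δ, that is 1.56 on the log2 scale, but −0.34 after quantile normalization). With TMM factors over all transcripts 1 of the 49 was called higher and 35 lower, where 9.11% of coding genes were called higher and 59.2% lower, so that the direction of most genes of the list, as of most coding genes, depends on the scaling.

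Of 9 exosome ring and cap genes 5 were called higher (55.6%, against 46.7% of coding genes), at 0.27 to 0.46. These were *rrp42*, *rrp43* and *rrp45* of the ring and *rrp4* and *csl4* of the cap. The signs of all 5 turned with TMM factors over all transcripts. *mpp6*, for a nuclear exosome cofactor, was at 0.33 (adjusted p = 0.0591 from limma), and *air1*, for the zinc knuckle protein of TRAMP, was called at 0.33, both with negative signs under TMM factors over all transcripts. Of 9 partners of MTREC, 2 were called higher (22.2%, against 46.7% of coding genes). These were the zinc finger gene *red5* (1326 and 1623 to 2305 and 2491, log2 fold change 0.71) and the YTH protein gene *mmi1* (5355 and 5040 to 7579 and 8269, 0.61). Neither *red5* nor *mmi1* passed with TMM factors over all transcripts (0.17 and 0.07) or DESeq2 size factors (0.05 and −0.05), but both kept their calls with TMM factors from protein-coding genes (0.46 and 0.36). The other 7 partners lay between 0.01 and 0.22. With *red1*, *red5* and *mmi1* had the largest log2 fold changes among the MTREC genes measured, under the deposited factors.

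Outside the nuclear cofactors, *ski3* (0.55) and *ski7* (0.62), for the scaffold and the exosome adaptor of the cytoplasmic Ski route, were called higher, with *ski2* at 0.04 and *rec14* at 0.04. Under DESeq2 size factors *ski3* was at −0.11 and *ski7* at −0.043, and neither was called. Besides *cid11*, the nucleotidyltransferase genes *cid12* (0.45), *cid16* (0.33) and *cid1* (0.31) passed. Of 7 genes for nuclear RNA-binding and termination factors, *seb1* (0.43), *pcf11* (0.43), *sen1* (0.30) and *nab2* (0.28) passed (57.1%, against 46.7% of coding genes). Among 13 genes listed together as 5′-3′ decay (with deadenylation and decapping) and other exonucleases, *caf1* (0.34) and *dis32* (0.33) were called higher (15.4%). The signs of *cid12*, *cid16*, *cid1*, *seb1*, *pcf11*, *sen1*, *nab2*, *caf1* and *dis32* turned with TMM factors over all transcripts.

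The deadenylase subunit gene *pan3* had 14845 and 12691 normalized read counts in WT and 7884 and 8380 in *rrp6*Δ, so that it fell by 0.76 on the log2 scale (standard error 0.10, adjusted p = 5.39e-06 from limma). It was called lower under each alternative run. *lsm1*, for a subunit of the cytoplasmic Lsm ring, fell by 0.36 (2164 and 2813 in WT, 1880 and 1955 in *rrp6*Δ), a call lost without WT library 2, without either *rrp6*Δ library and in limma without a trend.

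**Figure D4:**
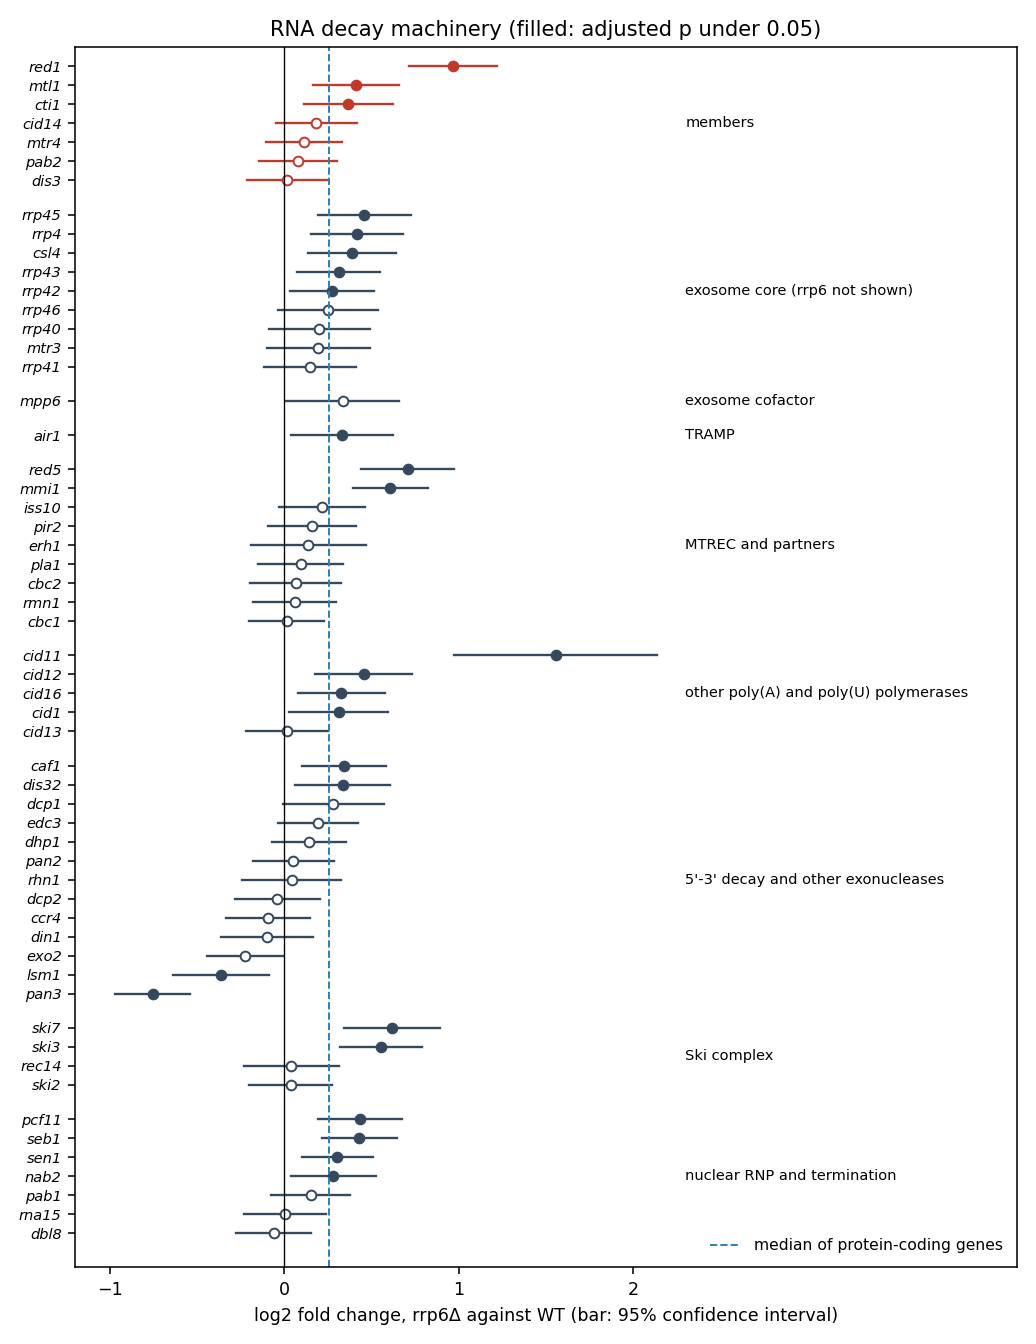
Log2 fold change of *rrp6*Δ against WT with its 95% interval for the 7 genes and 49 other genes of RNA decay, grouped by function, under the deposited factors, with filled points for adjusted p under 0.05. The dashed line marks the median of coding genes at 0.26; *red1* stood at 0.96, *cid11* at 1.56 and *pan3* at −0.76, whereas with TMM factors over all transcripts 35 of the 49 were called lower.

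For each of the 7 genes, the coding genes with the most similar profile over the 4 libraries were sought among those within 2-fold of its mean level, by the root-mean-square difference of centred log2 values. *red1* was nearest to *pnc1* (0.026, among 2281 genes) and *cld1* (0.027), and *mtl1* to *hrq1* and *iml1* (both 0.024). *cti1* was nearest to *cps3* (0.010) and *odr1* (0.012), *cid14* to *spb1* (0.0018) and *mri1*, and *mtr4* to *taf6* (0.0047) and *ade6*. *dis3* was nearest to *ned1* (0.0039) and *spp27*, and *pab2* to *glo3* (0.0098) and *rmn1* (0.011), the last listed among the partners of MTREC. Over 4 libraries a near profile means little more than a similar log2 fold change, such as 0.183 for both *cid14* and *spb1*. Whether such genes share a function was not tested. None of the 7 genes was among the 2 nearest of another.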

How the data were processed

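Strand-specific total RNA-seq of 2 WT and 2 *rrp6*Δ cultures was used. The signal values that the authors deposited are normalized read counts, in 1 table. The methods describe ERCC spike-ins added before rRNA removal. Reads were mapped with TopHat 2.0.6 (also in the submitters' processing notes), densities were normalized on ERCC signals, and CUTs were selected with DESeq. Each deposited value is a whole number of reads times a library factor (0.884 and 0.729 for WT, 0.820 and 1 for *rrp6*Δ), which held for 100% of values within 1e-06. The deposited densities are these counts per nucleotide and so carry the same factors. The factors were not traced to ERCC reads here. Columns of sums over libraries were not used, and 0 columns of other samples were present.

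Of 21852 entries, 10204 coding pieces were kept for the piece comparison only and 28 duplicates were removed, leaving 11620. Transcripts that passed edgeR's filterByExpr on the recovered reads (minimum count 10) were tested (11227), and all 7 genes passed. limma 3.58.1 with a trend (R 4.3.3) was run on log2(value + 0.729), with Benjamini-Hochberg adjustment over all transcripts. edgeR 4.0.16 (quasi-likelihood) and DESeq2 1.42.0 were run on the recovered reads with the deposited factors, and edgeR called 2447 coding genes higher and 385 lower. Other alternatives were TMM, DESeq2 size factors, library totals, quantile normalization, other pseudocounts and filters, an adjusted p of 0.01, a replicate block and leaving out each library. Data were also simulated over 11227 transcripts, with 1 fixed dispersion and few changed transcripts. Called were 50 of 50 changed 4-fold, 50 of 50 changed 2.5-fold, 9 of 50 changed 1.5-fold and 9 of 11027 unchanged transcripts. Smaller changes can thus be missed. The simulated shares do not give the power in the data, where 67.6% of transcripts were called higher and *cti1* was called at 1.29-fold. Coordinates are those of the table, and 5115 of 5118 coding sequences opened with ATG in ASM294v3. Sequences were read from that RefSeq assembly.

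The 7 genes and the gene lists were chosen with earlier results of these data known. Named were each of the 7, each listed decay gene that passed, each transcript overlapping a member, and the 2 nearest genes in profile. *rps1702*, *med11*, *mug8*, *alp21*, the upstream and downstream transcripts of *dis3* and *cti1*, *mcp3* and *rna14* were named after their values were seen.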

Additional observations from a re-analysis of the deposited data

How the results depend on the processing

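The scaling of the libraries moved the results most. Relative to the deposited factors, the median over all transcripts moved by −0.067 (log2) with library totals, −0.25 with TMM factors from coding genes, −0.54 with TMM factors over all transcripts, −0.66 under DESeq2 size factors and −1.02 with quantile normalization. Of the 7 genes, 3 were called as reported, 5 with TMM factors over all transcripts (1 higher, 4 lower), 7 with DESeq2 size factors (1 higher, 6 lower), 2 with TMM factors of coding genes and with quantile normalization (1 higher, 1 lower each), 1 in limma without a trend, and 1 to 4 with 1 library left out. Past 2-fold as well were 0, and 0 to 1 with 1 library left out (*red1*). The coding genes called were 9.11% higher and 59.2% lower with TMM factors over all transcripts, 7.10% and 72.7% under DESeq2 size factors, and 15.8% and 31.1% after quantile normalization. Of the 49 other decay genes, 22 were called as reported, 36 with TMM factors over all transcripts (1 higher, 35 lower), 42 with DESeq2 size factors (1 higher, 41 lower), 8 without a trend, 13 at an adjusted p under 0.01, and 8 to 29 with 1 library left out. With TMM factors of coding genes 18 were called (5 higher, 13 lower), and after quantile normalization 25 (5 higher, 20 lower).

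With TMM factors over all transcripts the log2 fold changes were −0.53 for *dis3*, −0.43 for *mtr4*, −0.36 for *cid14*, −0.17 for *cti1*, −0.13 for *mtl1* and −0.46 for *pab2*. DESeq2 size factors gave −0.64, −0.55, −0.48, −0.29, −0.25 and −0.58 in the same order. TMM factors from protein-coding genes gave −0.23, −0.13, −0.063, 0.12, 0.16 and −0.17, and quantile normalization −0.25, −0.075, −0.078, 0.062, 0.15 and −0.15. With library totals *dis3* was at −0.052. Without a trend *cti1* (0.37) and *mtl1* (0.41) lost their calls, as did *cti1* (0.37) at an adjusted p under 0.01. With 1 library left out, where the lone library is assumed to vary like the other strain, values ran from −0.054 to 0.084 for *dis3*, 0.04 to 0.19 for *mtr4*, 0.091 to 0.27 for *cid14*, 0.23 to 0.50 for *cti1*, 0.29 to 0.53 for *mtl1*, 0.87 to 1.06 for *red1* and −0.010 to 0.16 for *pab2*. *red1* kept its direction and its call under all 18 alternatives. Apart from the scaling itself and the smaller number of libraries, the causes of these moves were not tested.

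Replicate numbers of the strains mark no shared culture in the labels, and deviations of same-numbered libraries correlated at 0.011. A replicate block left 3 of the 7 genes and 26 of the 49 called. Each of the 7 genes had at least 1667 reads per library, whereas the antisense RNAs of *cid14* rested on 24 to 27.9 normalized reads in *rrp6*Δ and fewer in WT. CUT2078 at *mtr4* rested on 12.4 and 10.9 in WT and 34.5 and 18 in *rrp6*Δ.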
